A study of Homo sapiens with 15 samples.

Results

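Adhesion G protein-coupled receptors are cell-surface receptors with a long extracellular part, and 10 of them were followed by RNA sequencing in C4-2 prostate cancer cells that carried or lacked the lipase ATGL. GPR133 and GPR126 transcripts stood several-fold higher in every library of the ATGL knockout and of its addback lines than in the scramble control, LPHN2 transcripts were nearly gone there, and most of the other receptors lay within a narrow range in all 5 lines. The 10 genes were chosen by name from the measured levels of these same 15 libraries, as GPR133, GPR126, GPR56, GPR64, GPR110, LPHN1, LPHN2, CELSR1, CELSR2 and CD97. They are 10 of the 33 adhesion receptor genes looked for and of 20806 gene entries in the tables. Because the levels chose them, the values and differences between lines given below for these genes are a description and support nothing further. Where calls of these genes are counted, the count only restates that choice and stands beside the share of all genes.

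Most adhesion receptors are cut within their extracellular part during maturation, and the fragments stay bound together. Binding of a neighbouring cell or of matrix can expose a short tethered sequence that switches the membrane-spanning part on, after which G proteins, often those that raise cyclic AMP, carry the signal. In epithelia the family is known for sensing matrix and for orienting cells within a sheet, and several members are studied in tumours.

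C4-2 is an established castration-resistant prostate cancer line derived from LNCaP. All libraries came from cells kept in medium with 5 mM glucose and 5% dialyzed serum. The 5 lines, with 3 libraries each, were a scramble control (Scramble), an ATGL knockout (KO), and that knockout with wild-type ATGL (KO_WT), S47A ATGL (KO_S47A) or S404A ATGL (KO_S404A) added back. The submitters describe S47A as inactive in lipolysis. So 12 libraries share the knockout, and every comparison with Scramble rests on 1 scramble line. Every genotype is represented by 1 line, and the sources used here do not say whether it was a clone or a pool, so a difference between lines and the effect of losing ATGL cannot be told apart. The labels do not tell whether the 3 libraries of a line came from separate cultures. The p-values below therefore measure the spread between these libraries only, and that spread may be technical.

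Counts in genes totalled 40846694 to 64345775 per library, and levels are given as CPM, counts scaled to a common library size. PNPLA2, the gene of ATGL, averaged 48.9 ± 4.76 CPM in Scramble, 11.3 ± 1.99 in KO and, in the KO_WT, KO_S47A and KO_S404A lines, 220 ± 18.1, 129 ± 30.6 and 413 ± 98.3 (SD, n = 3 each). All 9 luminal prostate markers looked for were present, with KLK3 at a mean of 2750 CPM, and their summed level ranged from 7884 to 8216 CPM in Scramble and from 5570 to 7505 CPM in the other 12 libraries. The basal markers KRT5 and TP63 were at 0 in every library, KRT15 had 3 counts over all libraries and KRT14 averaged 2.52 CPM. The basal marker list summed to 4.25 to 4.63 CPM in Scramble and 1.38 to 2.45 CPM elsewhere. Of 9 stromal, endothelial and blood markers, COL1A1 averaged 15.5 CPM, VWF 9.51 and CD68 8.77. Over all libraries PTPRC had 1 count, COL1A2 and CDH5 2 counts each, PECAM1 3, DCN 9 and LUM 85. The list summed to 24.7 to 31.7 CPM in Scramble and 26.4 to 45.6 CPM elsewhere. The part of these shifts in the receptor values was not tested, and in bulk RNA fewer cells of a type and less RNA per cell cannot be told apart.

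RefSeq start sites of 6 of the 10 genes were matched (GRCh38.p14), and the 250 bases before the start are shown for 3 that have a single listed start. They were picked to show the range: GPR126 was the receptor with the highest mean level per length over the 15 libraries, while GPR64 and GPR110 were barely transcribed. Capitals mark CG pairs, the letters at which cytosine can be methylated in promoters. The GPR126 window lies at chr6:142301757-142302006 (plus strand), the GPR64 window at chrX:19122469-19122718 (minus strand) and the GPR110 window at chr6:47042333-47042582 (minus strand).
GPR126 (ADGRG6): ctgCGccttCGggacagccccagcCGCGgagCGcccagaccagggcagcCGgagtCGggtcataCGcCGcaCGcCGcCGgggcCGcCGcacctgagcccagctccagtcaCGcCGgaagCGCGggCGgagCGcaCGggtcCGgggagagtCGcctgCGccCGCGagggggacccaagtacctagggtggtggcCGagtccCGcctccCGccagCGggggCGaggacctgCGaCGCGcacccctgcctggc
GPR64 (ADGRG2): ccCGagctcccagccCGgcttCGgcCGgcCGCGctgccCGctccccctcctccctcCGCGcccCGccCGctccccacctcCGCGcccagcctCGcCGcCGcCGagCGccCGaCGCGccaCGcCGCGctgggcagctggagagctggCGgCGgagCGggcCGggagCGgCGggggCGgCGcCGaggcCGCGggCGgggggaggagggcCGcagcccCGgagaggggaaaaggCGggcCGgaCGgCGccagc
GPR110 (ADGRF1): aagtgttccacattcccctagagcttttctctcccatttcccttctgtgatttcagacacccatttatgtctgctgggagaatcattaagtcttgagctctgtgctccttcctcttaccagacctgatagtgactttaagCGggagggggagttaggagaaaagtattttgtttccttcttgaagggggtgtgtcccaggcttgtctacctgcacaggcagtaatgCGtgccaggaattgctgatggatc
The GPR126 window holds 34 CG pairs, and 6.84% of 35116 RefSeq windows of this length hold at least as many. GPR64 has 42 CG pairs, reached by 1.38% of windows, and GPR110 has 2, a count that 85.3% of windows reach. The median window holds 11. So among these 3 genes a CG-rich window stood before both the most abundant transcript and one of the rarest. The letters TATAAA were searched on both strands and are in none of the 3 windows, beside 10.7% of all windows.

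GPR133, now named ADGRD1 and encoded on chromosome 12, is a receptor that raises cyclic AMP and is known from glioblastoma growth. In Scramble it was at 2.35, 2.30 and 1.58 CPM in libraries 1, 2 and 3. In KO it was at 14.4, 12.9 and 10.6 CPM, in KO_WT at 19.3, 17.2 and 11.2, in KO_S47A at 18.8, 15.0 and 12.2, and in KO_S404A at 19.0, 17.2 and 11.3. All 12 libraries that share the knockout lay above all 3 of Scramble, with no overlap, and the KO and addback ranges overlapped one another. Of all tested genes 20.7% (KO), 23.1% (KO_WT), 25% (KO_S47A) and 18.2% (KO_S404A) had ranges that did not overlap Scramble. The log2 fold change of GPR133 over Scramble was 2.61 in KO, 2.94 with wild-type ATGL, 2.88 with S47A and 2.93 with S404A (SE 0.27 each). These 4 comparisons share the Scramble libraries. Compared with KO, the addback lines differed by 0.33 (95% interval -0.19 to 0.85) with wild-type ATGL, 0.28 (-0.24 to 0.80) with S47A and 0.32 (-0.19 to 0.84) with S404A. None of the 3 addback means lay nearer to Scramble than the KO mean did, and the 3 intervals against KO all span 0. PNPLA2 RNA was above its Scramble level in all 9 addback libraries, and ATGL protein and activity are not part of these data. The part of ATGL in the GPR133 values was not tested.

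GPR126, now ADGRG6 on chromosome 6, is the receptor of collagen IV and laminin that Schwann cells need for myelination. It was at 45.7, 43.5 and 32.3 CPM in Scramble and at 193, 185 and 115 CPM in KO. The values were 228, 217 and 122 CPM with wild-type ATGL, 269, 261 and 157 with S47A, and 264, 206 and 115 with S404A. All 12 knockout-derived libraries lay above the highest Scramble value, and the ranges of KO and the 3 addback lines overlapped. Its log2 fold change over Scramble was 2.02 (SE 0.33) for KO and 2.22 (SE 0.33), 2.50 (SE 0.34) and 2.27 (SE 0.33) for the wild-type, S47A and S404A addbacks. Against KO the difference was 0.20 (95% interval -0.48 to 0.89), 0.48 (-0.21 to 1.17) and 0.25 (-0.44 to 0.93) in the same order of addbacks.

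**Figure D1:**
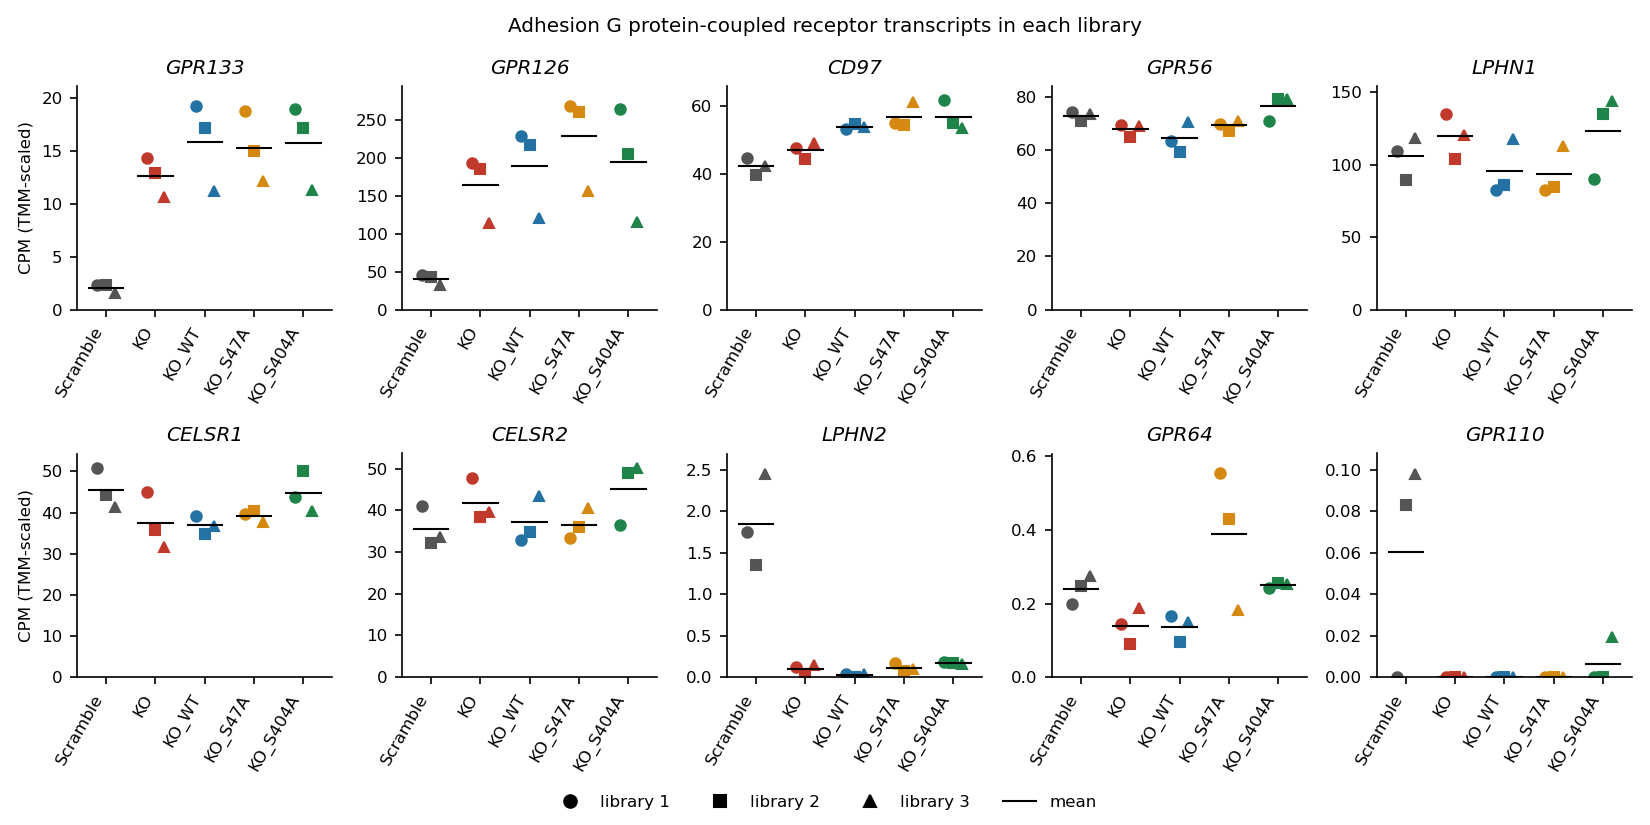
Level of each of the 10 receptors in TMM-scaled CPM (vertical axis, from 0, own scale per panel) in the 5 lines; symbols are libraries 1, 2 and 3 of a line and bars are means of 3. GPR133 and GPR126 sit higher in all knockout-derived libraries than in Scramble, LPHN2 sits lower, and the library numbered 3 is the lowest of its line for GPR133 and GPR126.

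Both receptors also varied within each line in the same way. The library numbered 3 was the lowest of its line in 5 of 5 lines for GPR133, at 0.615 to 0.778 of the mean of libraries 1 and 2, and in 5 of 5 lines for GPR126, at 0.491 to 0.723. Taking libraries of the same number, GPR133 in KO was 6.12, 5.62 and 6.71 times its level in Scramble, and GPR126 was 4.22, 4.25 and 3.55 times. The difference from Scramble was thus present at each number. What sets the libraries numbered 3 apart is not given in the labels. Across all 15 libraries the Pearson correlation of log2 CPM between GPR133 and GPR126 was 0.98, and across the 12 knockout-derived libraries it was 0.91. These points share lines, library numbers and the scaling to depth, so the values are a description.

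**Figure D2:**
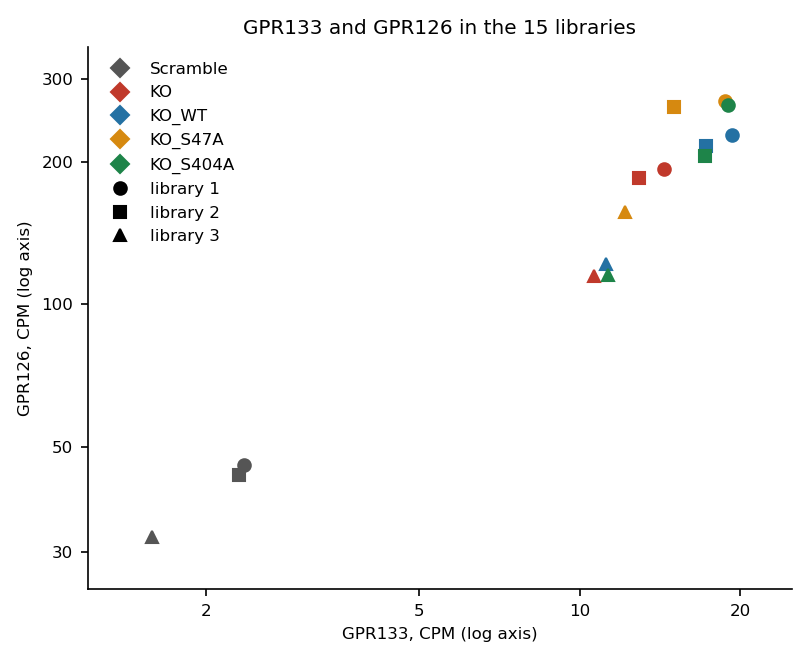
GPR126 against GPR133 in CPM (both axes log) in the 15 libraries, colour for the line and symbol for the library number. The 3 Scramble libraries lie apart at the lower left, and among the other 12 the libraries numbered 3 lie lowest on both axes.

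Among tested genes that averaged 1 CPM or more, the 5 whose log2 CPM was most like that of GPR133 over the 15 libraries were RALYL (Pearson r 0.99), EPHA3 (0.99), SSFA2 (0.98), SERPINB9 (0.98) and DDX53 (0.98). EPHA3 is an ephrin receptor, RALYL an RNA-binding protein, SERPINB9 an inhibitor of granzyme B, and DDX53 a cancer-testis helicase. Over the 12 knockout-derived libraries alone r was 0.93 for RALYL, 0.84 for EPHA3, 0.75 for SSFA2, 0.65 for SERPINB9 and 0.70 for DDX53. RALYL thus followed GPR133 most closely of these 5 also without Scramble, with means of 3.05 CPM in Scramble, 27.3 in KO, 40.8 with wild-type ATGL, 38.1 with S47A and 37.4 with S404A.

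LPHN2, now ADGRL2 on chromosome 1, is a latrophilin, a receptor that binds FLRT and teneurin proteins of neighbouring cells. Its reads numbered 70, 65 and 125 in the Scramble libraries and 6, 2 and 8 in KO. KO_WT had 2, 0 and 2 reads, KO_S47A 9, 4 and 5, and KO_S404A 11, 11 and 8. No knockout-derived library reached the lowest Scramble library, in which LPHN2 was at 1.35 CPM. LPHN2 differed from Scramble by -4.14 (SE 0.54) in KO on the log2 scale, and by -5.88 (SE 0.64), -3.98 (SE 0.54) and -3.45 (SE 0.51) in the wild-type, S47A and S404A lines. With so few reads in these lines the size of the difference is imprecise, and LPHN2 passed the low-count filter only through the Scramble libraries.

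LPHN1 (ADGRL1, chromosome 19), the latrophilin first found as a receptor of the spider toxin latrotoxin, was far more abundant than LPHN2. It averaged 106 ± 14.8 CPM in Scramble, 120 ± 15.5 in KO and, in the KO_WT, KO_S47A and KO_S404A lines, 95.5 ± 19.3, 93.3 ± 17.1 and 123 ± 28.9 (SD, n = 3 each). All neighbours in that order of levels overlapped. In KO_S404A library 1 had 89.8 CPM and libraries 2 and 3 had 135 and 144, a wider spread than that between the means of the 5 lines. KO minus Scramble was 0.18 on the log2 scale (95% interval -0.24 to 0.60).

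GPR110, now ADGRF1 on chromosome 6, is a receptor of the lipid synaptamide, a derivative of a polyunsaturated fatty acid, in developing neurons. It had 0, 4 and 5 reads in the Scramble libraries, 0 in all 9 libraries of KO, KO_WT and KO_S47A, and 0, 0 and 1 in KO_S404A. All 10 reads of this gene therefore came from 3 libraries. By counting error alone, a count of 0 over a group allows up to 3 reads. The pooled level of the 9 Scramble reads was 3.39-fold that limit in KO, 2.94-fold in KO_WT and 3.38-fold in KO_S47A. These ratios are not minimum differences. They leave out the counting error of the 9 reads and the spread between libraries. GPR110 failed the low-count filter and entered no fit.

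GPR64, now ADGRG2 on the X chromosome, is known from the epididymis and male fertility. Its reads numbered 8, 12 and 14 in Scramble, 7, 5 and 10 in KO and 8, 4 and 7 in KO_WT. KO_S47A had 30, 23 and 9 reads of GPR64, and KO_S404A 15, 17 and 13. Libraries 1 and 2 of KO_S47A were the highest, at 0.556 and 0.431 CPM, while library 3 of that line, at 0.182 CPM, lay among the values of KO. KO_S47A minus KO was 1.46 on the log2 scale (95% interval 0.46 to 2.47), and KO_S47A minus Scramble was 0.69 (-0.27 to 1.65). Within numbers the ratio to KO was 3.86 and 4.79 for libraries 1 and 2 and 0.971 for library 3. The higher mean of this line thus rested on libraries 1 and 2. KO (up to 0.187 CPM) and KO_WT (up to 0.167) lay below every Scramble library (from 0.200). Of all tested genes 20.7% and 23.1% did not overlap Scramble there. KO_S404A (from 0.242 CPM) lay above every KO library, beside 6.84% of all tested genes without overlap. With so few reads, the intervals of these 3 differences spanned 0 (log2 -1.81 to 0.25, -1.85 to 0.25 and -0.19 to 1.84).

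GPR56 (ADGRG1, chromosome 16) binds collagen III and the crosslinking enzyme TGM2. GPR56 averaged 72.9 ± 1.87 CPM in Scramble and 67.8 ± 2.58 in KO. The means were 64.3 ± 5.57 CPM with wild-type ATGL, 69.1 ± 1.98 with S47A and 76.3 ± 4.61 with S404A. The difference from Scramble lay between -0.18 (SE 0.082) in KO_WT and 0.07 (SE 0.082) in KO_S404A on the log2 scale. The 95% interval was -0.36 to -0.004 in KO_WT, -0.28 to 0.07 in KO, -0.25 to 0.10 in KO_S47A and -0.11 to 0.24 in KO_S404A. KO (up to 69.4 CPM), KO_WT (up to 70.4) and KO_S47A (up to 70.65) lay below every Scramble library (from 70.72). Of all tested genes 20.7%, 23.1% and 25% did not overlap Scramble there. KO_S404A (from 71.0 CPM) overlapped Scramble. It lay above every KO and KO_WT library, beside 6.84% and 10% of all tested genes without overlap.

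CD97, now ADGRE5 on chromosome 19, binds CD55 and THY1 and is best known from leukocytes. It was at 44.6, 39.8 and 42.4 CPM in Scramble and at 47.6, 44.5 and 49.3 CPM in KO. KO_WT had 53.4, 54.7 and 53.9 CPM, KO_S47A 55.0, 54.4 and 61.2, and KO_S404A 61.7, 55.1 and 53.7. Scramble and KO overlapped narrowly, and every addback library lay above every KO library. Of all tested genes 15.5% (KO_WT), 21.9% (KO_S47A) and 6.84% (KO_S404A) had ranges that did not overlap KO. The 3 comparisons with KO share the KO libraries. CD97 differed from Scramble by 0.16 in KO and, in the KO_WT, KO_S47A and KO_S404A lines, 0.35, 0.43 and 0.43 (log2, SE 0.084 each). Over KO it was 0.20 (95% interval 0.02 to 0.38), 0.27 (0.09 to 0.45) and 0.27 (0.09 to 0.45) for the 3 addbacks. As for GPR133 and GPR126, the addback means lay farther from Scramble than the KO mean. The part of ATGL in this was not tested.

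CELSR1 on chromosome 22 and CELSR2 on chromosome 1 are cadherin-like receptors of planar cell polarity, the system that orients cells within an epithelial sheet. CELSR1 averaged 45.5 ± 4.83 CPM in Scramble, 37.5 ± 6.77 in KO, 36.9 ± 2.22 with wild-type ATGL, 39.2 ± 1.33 with S47A and 44.7 ± 4.94 with S404A. CELSR2 averaged 35.6 ± 4.71 CPM in Scramble, 41.9 ± 5.05 in KO and, in the KO_WT, KO_S47A and KO_S404A lines, 37.1 ± 5.60, 36.6 ± 3.60 and 45.2 ± 7.55. For CELSR2 all neighbours in the order of levels overlapped. For CELSR1, among neighbours in that order, only KO_S47A and KO_S404A did not overlap. Farther apart in it, CELSR1 in KO_WT (up to 39.3 CPM) and KO_S47A (up to 40.3) lay below every Scramble library (from 41.3). Of all tested genes 23.1% (KO_WT) and 25% (KO_S47A) had ranges that did not overlap Scramble. KO_S404A (from 40.4 CPM) also lay above every KO_WT library, beside 10% of all tested genes without overlap there. CELSR1 differed from Scramble by -0.28, -0.30, -0.22 and -0.02 in KO, KO_WT, KO_S47A and KO_S404A (log2, SE 0.13 each). Beside these, the median over the 375 tested genes of chromosome 22 was -0.32, -0.38, -0.33 and -0.28 in the same comparisons, and over other chromosomes it was 0.03, 0.02, 0.02 and 0.03. The part of this chromosome-wide shift in the CELSR1 values was not tested. CELSR2 varied together with LPHN1 from library to library, with a Pearson correlation of log2 CPM of 0.86 over 15 libraries and 0.96 over the 12 knockout-derived ones, points that share lines and scaling.

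A gene is called here when its adjusted p (edgeR quasi-likelihood test, Benjamini-Hochberg over 14246 genes) is under 0.05, and 9 of the 10 receptors entered the fit. The calls of receptors against Scramble restate the values that chose the genes, that of LPHN2 also the low-count filter, and nothing is read from them. In KO minus Scramble 2 were called higher, GPR133 and GPR126, beside 0.969% of all genes, and 1 lower, LPHN2, beside 1.72%. In KO_WT minus Scramble 3 were called higher, those of KO and CD97, beside 1.51% of all genes, and LPHN2 lower beside 1.96%. The same 3 and LPHN2 were called in KO_S47A minus Scramble, beside 1.59% of genes higher and 2.23% lower, and in KO_S404A minus Scramble, beside 1.34% higher and 1.77% lower. The call of CD97 was lost in KO_WT minus Scramble when any of the 6 libraries compared was left out, with log2 fold changes of 0.31 to 0.39, and in the S47A and S404A comparisons without Scramble library 2, at 0.38 and 0.36.

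**Figure D3:**
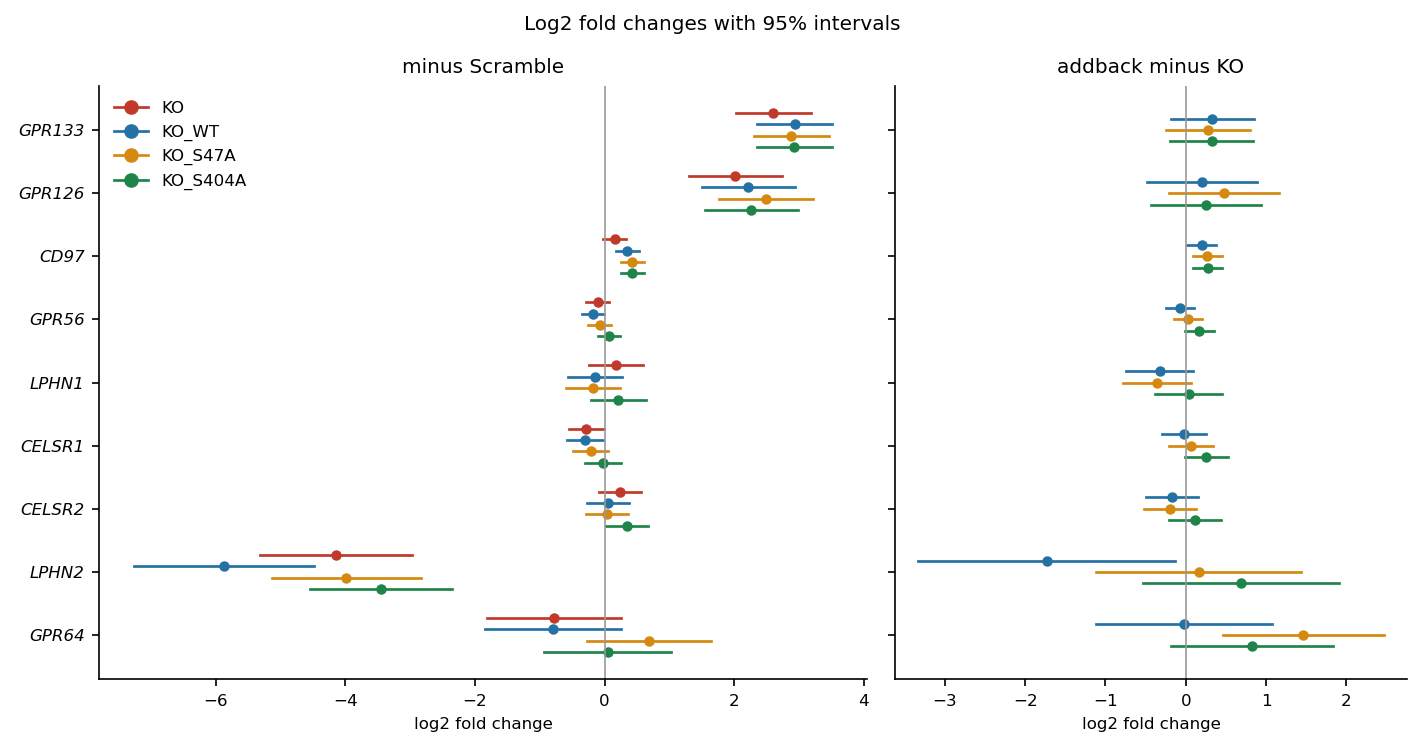
Log2 fold change (horizontal axis) of the 9 fitted receptors with 95% intervals, in the 4 knockout-derived lines minus Scramble at the left and in the 3 addback lines minus KO at the right. GPR133 and GPR126 lie to the right and LPHN2 to the left of 0 against Scramble in all 4 lines, while against KO the intervals of GPR133 and GPR126 span 0.

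Adding ATGL back to the knockout called 0 of the 9 receptors in each of the 3 comparisons with KO by edgeR's test. Of all genes 0.0281% were called with wild-type ATGL, 0.00702% with S47A and 0.0211% with S404A. At an unadjusted p under 0.05 there were 2, 2 and 1 receptors, beside 7.58%, 16.8% and 4.08% of all genes. DESeq2 called 0 receptors in each, and 8, 33 and 8 of all genes. The S47A count depended on how the library numbers were treated: with the number as a replicate block, GPR126 (log2 fold change 0.48) and CD97 (0.27) were called in KO_S47A minus KO, while the genes called in all went from 1 to 3150. Within numbers GPR126 in KO_S47A was 1.39, 1.41 and 1.37 times its level in KO. Between addbacks 0 receptors and 0% of all genes were called in both KO_S47A minus KO_WT and KO_S404A minus KO_WT. At an unadjusted p under 0.05 there were 309 and 1239 genes there, 2 and 3 of them receptors, and DESeq2 called 4 and 0 genes, none of them a receptor. GPR133 differed between S47A and wild-type addback by -0.05 (95% interval -0.57 to 0.46), and GPR126 by 0.28 (-0.41 to 0.96).

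Per kilobase of transcript, which allows genes to be compared, GPR126 was the fourth of the 10 in Scramble at 5.56 ± 0.99 CPM per kilobase, below GPR56 at 15.6, LPHN1 at 13.5 and CD97 at 13.1. In KO it was the highest, at 22.6 ± 5.93. It stayed the highest in KO_WT (25.9 ± 8.04), KO_S47A (31.4 ± 8.58) and KO_S404A (26.8 ± 10.3). The 10 receptors summed to 55.4 ± 3.21 CPM per kilobase in Scramble and to 76.0 ± 7.34 in KO, 77.7 ± 4.76 with wild-type ATGL, 85.0 ± 5.32 with S47A and 86.9 ± 8.09 with S404A. GPR126 made up 10.0% of that sum in Scramble and 29.7%, 33.4%, 37.0% and 30.8% in the other lines. GPR133 remained a minor transcript, at 0.344 CPM per kilobase in Scramble and 2.09 to 2.63 in the others.

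The 10 genes made up 89.9% to 93.7% of the summed level of the 33 family genes in the 5 lines. The most abundant of the other 23 was GPR125, an orphan receptor, at a mean of 3.31 CPM per kilobase, close to CELSR1 at 3.32. Of these 23 genes 11 were tested, and 0 were called in KO minus Scramble by edgeR and 0 by DESeq2. Of all genes edgeR called 0.969% higher and 1.72% lower there. At an unadjusted p under 0.05 there were 0 of the 11, beside 12.8% of all genes. The median log2 fold change of the 11 was 0.02, the same as over all genes, 0.02. EMR2, whose extracellular repeats are nearly identical to those of CD97, had 18 reads in all libraries together, and the sources used here do not say how reads shared by both genes were counted.

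**Figure D4:**
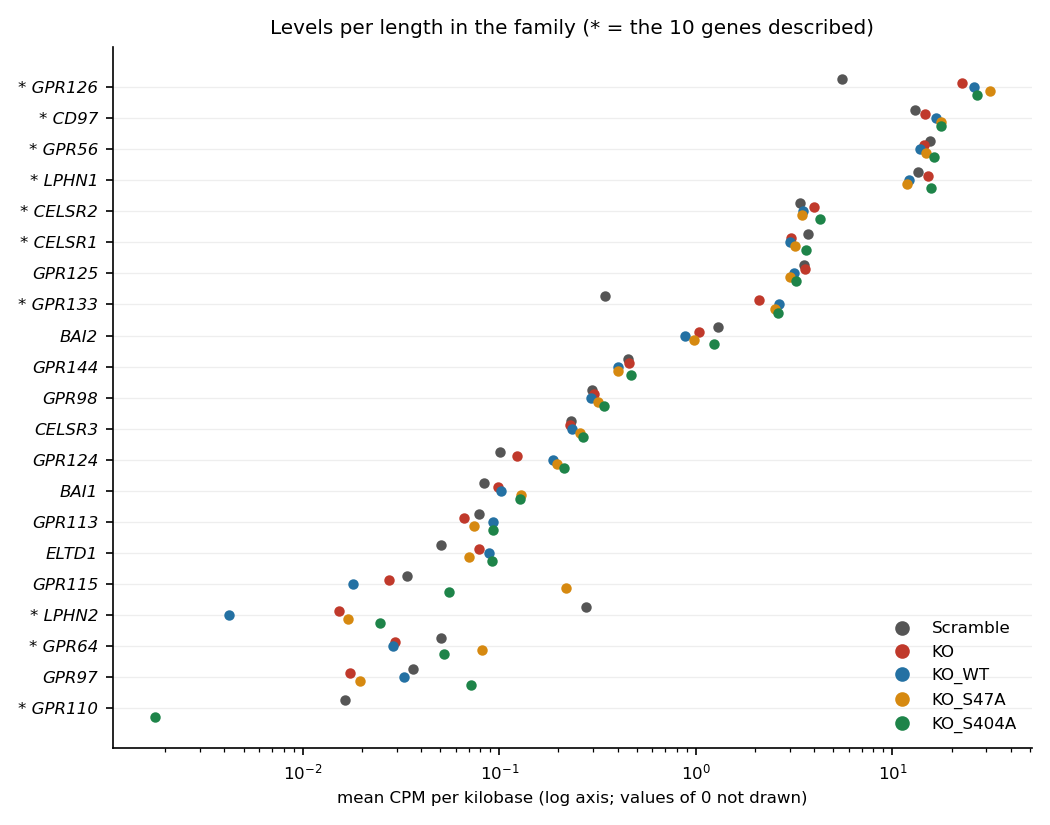
Mean level per kilobase (horizontal axis, log scale, CPM per kilobase) of the family genes that passed the low-count filter, with GPR110 added, in the 5 lines (colours, n = 3 each); a star marks the 10 genes described. GPR126, GPR133 and LPHN2 have a Scramble point far from the other 4, and most other genes have all 5 points close together.

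The known ligands and binding partners of these receptors were looked at next. Of 26 such genes 19 were tested, and in KO minus Scramble 1 rose and 1 fell, beside 0.969% and 1.72% of all genes. At an unadjusted p under 0.05 there were 8 of the 19, beside 12.8% of all 14246 genes. The median log2 fold change of the 19 was -0.05, beside 0.02 over all genes. TGM2, the partner of GPR56, fell from 5.25 ± 0.84 CPM in Scramble to 0.675 ± 0.434 in KO (log2 fold change -2.96, SE 0.51, edgeR adjusted p = 0.00585). The reads of TGM2 numbered 247, 243 and 232 in Scramble and 56, 32 and 16 in KO. In the addback lines TGM2 averaged 0.655 CPM (KO_WT), 0.778 (KO_S47A) and 0.877 (KO_S404A), and each of their 9 libraries lay below each Scramble library. COL4A5, a chain of collagen IV, the ligand of GPR126, rose from 68.5 ± 1.77 to 88.4 ± 3.59 CPM in KO (log2 fold change 0.37, SE 0.076, edgeR adjusted p = 0.0177). COL4A5 lost its call when any of the 6 libraries was left out, with an edgeR adjusted p of 0.0513 to 0.122. The values of Scramble and KO did not overlap (67.4 to 70.5 and 86.0 to 92.5 CPM), as in 20.7% of all tested genes. In the addback lines COL4A5 averaged 91.0 CPM (KO_WT), 94.2 (KO_S47A) and 91.5 (KO_S404A). Each addback library lay above each Scramble library, and 23.1%, 25% and 18.2% of all tested genes did not overlap Scramble in these lines.

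PTK7, the ligand reported for GPR133, was at 28.5 ± 2.20 CPM in Scramble and 35.3 ± 3.69 in KO and was not called there. PTK7 rose in KO_WT minus Scramble, to 41.8 ± 6.56 CPM (log2 fold change 0.55, SE 0.13, edgeR adjusted p = 0.0331). This call was lost in 5 of the 6 fits that left out 1 of the libraries compared, with an adjusted p of up to 0.165, and was kept without KO_WT library 2 (0.0488). Among the same partners, 2 laminin chains were called in 1 addback line each. LAMC1 fell in KO_WT minus Scramble, from 236 ± 30.7 to 166 ± 14.0 CPM (log2 fold change -0.51, edgeR adjusted p = 0.0240), and LAMB1 rose in KO_S404A minus Scramble, from 34.1 ± 4.12 to 45.3 ± 2.05 CPM (0.41, adjusted p = 0.0340). The LAMC1 call was lost in 4 of 6 fits that left out a library (without Scramble library 1 or 3 or KO_WT library 1 or 2) and the LAMB1 call in 5 of 6 (all but that without Scramble library 3). PTK7, LAMC1 and LAMB1 were singled out after their values were seen.

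Of 39 G protein and effector genes 35 were tested, and 0 were called in KO minus Scramble by edgeR and 1 by DESeq2. Of all genes edgeR called 0.969% higher and 1.72% lower there. At an unadjusted p under 0.05 there were 5 of the 35, beside 12.8% of all genes. GNAQ, which encodes the G protein subunit that activates phospholipase C, fell in all 3 addback lines compared with Scramble. It averaged 19.4 ± 2.07 CPM in Scramble, 14.2 ± 1.84 in KO, where it was not called, 12.5 ± 0.20 in KO_WT, 10.8 ± 1.53 in KO_S47A and 12.7 ± 2.16 in KO_S404A. On the log2 scale GNAQ differed from Scramble by -0.63 in KO_WT (edgeR adjusted p = 0.0288), by -0.85 in KO_S47A (adjusted p = 0.00508) and by -0.61 in KO_S404A (adjusted p = 0.0401). Leaving out each of the libraries compared in turn, the S47A call was kept in all 6 fits, while the other 2 were not. The KO_WT call was kept only without Scramble library 1 (0.0452), and the KO_S404A call only without Scramble library 1 (0.0495) or KO_S404A library 2 (0.0424). PRKAR1B, a regulatory subunit of the cyclic AMP-dependent kinase, fell in KO_S47A minus Scramble, from 37.9 ± 1.02 to 27.5 ± 0.51 CPM (log2 fold change -0.46, edgeR adjusted p = 0.0171). This call was lost without Scramble library 3 (0.0781) or KO_S47A library 1 (0.0703). GNAQ and PRKAR1B, too, were singled out after their values were seen.

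Targets of cyclic AMP and genes of planar cell polarity were counted in the same way. Of 14 genes that respond to cyclic AMP all 14 were tested, and 0 were called in KO minus Scramble by edgeR and 0 by DESeq2. This stands beside 0.969% of all genes called higher and 1.72% lower by edgeR. At an unadjusted p under 0.05 there were 0 of the 14, beside 12.8% of all genes. The median log2 fold change of the 14 was -0.04, beside 0.02 over all genes. ATF3, the most abundant of them per length, was at 44.1 ± 19.1 CPM in Scramble and 34.7 ± 11.7 in KO. In KO_WT, KO_S47A and KO_S404A it averaged 54.7 ± 28.7, 116 ± 71.1 and 61.0 ± 45.5 CPM, with KO_S47A libraries from 34.4 to 167. In these lines minus Scramble edgeR called 0 of the 14 and DESeq2 0, 0 and 1. At an unadjusted p under 0.05 there were 1, 2 and 3, beside 14.8%, 18.8% and 15.7% of all genes. In KO_S47A and KO_S404A minus KO_WT both called 0. There 3 and 5 were at an unadjusted p under 0.05, beside 2.17% and 8.7% of all genes. Of 17 planar cell polarity genes other than CELSR1 and CELSR2 15 were tested. In KO minus Scramble 0 of the 15 were called by edgeR and 0 by DESeq2. At an unadjusted p under 0.05 there were 3 of the 15, beside the same 12.8% of all genes. FZD6, the most abundant of the polarity genes per length and a Frizzled receptor of that system, was at 71.5 ± 3.40 CPM in Scramble and 85.4 ± 2.72 in KO. In KO_WT minus Scramble 2 genes of this list rose, PTK7, which is in both lists, and FZD6, at 105 ± 13.2 CPM in KO_WT (log2 fold change 0.56, edgeR adjusted p = 0.020). The FZD6 call was kept without KO_WT library 3 and lost in the other 5 fits that left out a library, with an adjusted p of 0.061 to 0.136. In KO_S47A and KO_S404A minus Scramble 0 of the list were called by edgeR, with 6 and 5 at an unadjusted p under 0.05, beside 18.8% and 15.7% of all genes, and 2 and 0 called by DESeq2.

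In the 3 comparisons of an addback with KO, 0 genes of these 5 lists were called by edgeR and 0 by DESeq2. Of all genes edgeR called 0.0281% (KO_WT), 0.00702% (KO_S47A) and 0.0211% (KO_S404A) there.

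**Figure D5:**
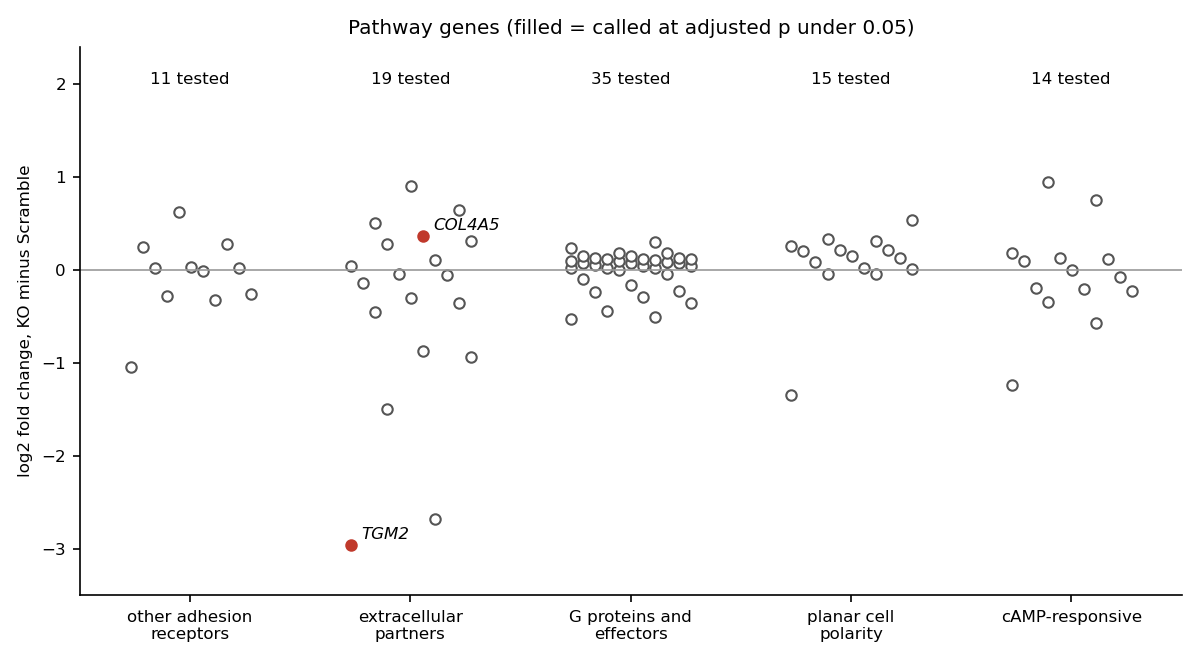
Log2 fold change in KO minus Scramble (vertical axis) of the tested genes of 5 lists around the receptors; each circle is a gene, filled where the edgeR adjusted p is under 0.05. TGM2 lies far below 0 and COL4A5 a little above, and most open circles lie near 0.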

How the data were processed

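Poly(A) RNA was sequenced in 15 libraries. The authors deposited a table of raw read counts per gene for each library, whole numbers without normalization. Per the submitters' processing notes, CASAVA and STAR were used. The sources used here give no genome build, annotation release or strand setting, so reads of overlapping or antisense genes cannot be told apart. The deposited tables also hold FPKM, a unit in which the authors divided counts by gene length and library total. These were used only for gene lengths. The 5 entries of unassigned reads, 13.2% to 20.6% of a library, were left out.

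The 10 receptors, the gene lists around them and the rules for naming genes were chosen with earlier results of these data known. Named list genes are those called in KO minus Scramble or in an addback minus KO, and for a list with no call its most abundant gene per length. List genes called only in an addback minus Scramble were added after their values were seen. One of the lists and one gene named by this rule are not reported here. Low counts were removed with filterByExpr, which kept 14246 genes, and TMM factors scaled the depth. With edgeR 4.0.16 (R 4.3.3) a quasi-likelihood model was fitted to all 15 libraries, 1 mean per line and 10 residual degrees of freedom, and 9 comparisons were tested. The SE was approximated from the F statistic (log2 fold change over its square root), and intervals were built from it. Correlations used log2 of CPM plus 0.5. At this depth the median half-width of a gene's 95% interval was 0.363 (log2). Libraries of a line differed by more than counting noise (chi-square per degree of freedom at least 8.11). The procedure was tested on simulated counts. Alternatives were RLE scaling, no filter, DESeq2 1.42.0, 2-group fits, a replicate block, libraries 1 and 2 only, and leaving out each library.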

Additional observations from a re-analysis of the deposited data

How the results depend on the processing

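The calls of GPR133, GPR126 and LPHN2 against Scramble follow from how the genes were chosen, so nothing is read from how they fared. No called fold change reversed its direction under the alternatives run. Of 962 alternative values of the receptors' log2 fold changes, 891 moved by less than the spread between replicates, and the 71 that moved further all belonged to GPR64 or LPHN2, the receptors with few reads. In KO_S47A minus KO, 0 receptors were called, but 2 with the replicate block (GPR126 and CD97) and 2 with libraries 1 and 2 only (GPR126 and GPR64). The cause was not tested. All genes called in that comparison numbered 1, against 3150 with the block and 3098 with libraries 1 and 2 only. In KO minus Scramble 383 genes were called, against 1181 with the block, 693 with DESeq2 and 770 with libraries 1 and 2 only.

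Of the list genes, 2 were called in KO minus Scramble, against 10 with the replicate block, 4 with DESeq2, 1 in the 2-group fit, 5 with libraries 1 and 2 only, and 1 to 2 leaving out each library. In KO_S47A minus KO 0 were called, against 17 with the block and 13 with libraries 1 and 2 only, and in KO_S404A minus KO 0, against 2 with libraries 1 and 2 only. The labels do not say that equal library numbers share a culture or a day. Libraries of the same number in different lines had correlated deviations of -0.0506 to 0.824, and those of different numbers -0.733 to 0.604. On average 8 of 15 libraries were closest to their own number. These ranges overlap widely, and whether libraries of equal number are more alike was not tested. The labels do not define the number either. The block was therefore kept as an alternative. CD97 lost its call in KO_WT minus Scramble also without the filter (0.35) and with libraries 1 and 2 only (0.36), and in each addback minus Scramble in the 2-group fit (0.35, 0.42 and 0.42). Among the list genes named by the rule, TGM2 kept its call in all alternatives, and the 2-group fit lost COL4A5 (0.35). Of the list genes added after their values were seen, the 2-group fit lost PTK7 (0.56), LAMC1 (-0.51), LAMB1 (0.40) and GNAQ in KO_S404A (-0.62). The fit without the filter lost LAMB1 (0.39). Libraries 1 and 2 alone lost GNAQ in KO_WT (-0.55) and KO_S404A (-0.55). Depth limits GPR110, GPR64 and, outside Scramble, LPHN2.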

Other observations

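GPR115, an adhesion receptor outside the 10, was noticed after the values were seen. It had 59 and 56 reads in libraries 1 and 2 of KO_S47A and 4 in library 3, and 1 to 27 reads in the other 12 libraries. The libraries of KO_S47A with many GPR115 reads are those in which GPR64 was highest, with 30 and 23 reads against 9 in library 3. With 3 libraries in the line, no test of this was made.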
